A study of Mus musculus with 8 samples.

Results

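Homer1 and Bdnf are neuronal genes that each give rise to several transcripts, and the deposited count files hold 21 transcript rows for them, 11 named Homer1 and 10 named Bdnf, of 95533 transcript rows in all. A row was taken when the gene name in the file was Homer1 or Bdnf, and no measured value entered that choice. The 6 libraries analysed were made from layer IV of the visual cortex, from B6D2 mice, cut out by hand. They comprise 2 libraries of Otx2 +/GFP heterozygotes at postnatal day 30 (P30), 2 of Otx2 +/+ wild types at P100 and 2 of Otx2 +/+ wild types at P30. In the heterozygotes GFP stands at 1 allele of Otx2, the gene of a homeodomain transcription factor. The choroid plexus makes this protein, and cells of the cortex take it up. Each library is a pool of 4 mice. The 2 heterozygous samples at P100 were not analysed here. The design asks how age and the loss of 1 Otx2 allele alter expression in the cortex that receives visual input.

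The Homer1 protein binds group I metabotropic glutamate receptors, inositol trisphosphate receptors and Shank proteins through its amino-terminal EVH1 domain. Long forms carry a carboxy-terminal coiled coil through which they join into a scaffold. Short forms, Homer1a foremost, lack the coiled coil and compete with the long ones, and they are induced by neuronal activity when transcription ends within intron 5. Bdnf encodes brain-derived neurotrophic factor, the ligand of the receptor TrkB (Ntrk2). Each of its several promoters gives a transcript with its own 5′ exon joined to 1 shared last exon that holds the coding sequence of the mature protein, and promoter IV in particular is known to respond to activity and calcium in cortical neurons.

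The forms of Homer1 part after the fifth exon, which ends at 93356079 on the plus strand of chromosome 13 (mm10). Below are the last 24 bases of that exon, in lower case, followed in capitals by the coding bases that belong to the isoform (for Homer1-205, Homer1-206 and Homer1-201 only the first 27). They are shown because all results on short against long Homer1 turn on what follows this junction.
Homer1-204: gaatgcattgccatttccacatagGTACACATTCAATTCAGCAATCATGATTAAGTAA
Homer1-205: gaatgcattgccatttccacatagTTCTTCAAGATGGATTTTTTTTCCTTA
Homer1-206: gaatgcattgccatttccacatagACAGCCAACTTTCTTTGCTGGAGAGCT
Homer1-207: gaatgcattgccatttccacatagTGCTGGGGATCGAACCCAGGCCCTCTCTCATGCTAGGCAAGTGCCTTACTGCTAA
Homer1-201: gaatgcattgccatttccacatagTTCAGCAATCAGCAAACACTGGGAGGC
Homer1-204 reads straight on from exon 5 into what is intron for the other forms. Its own 34 coding bases lie at chr13:93356080-93356113 and end with the stop codon. Homer1-205 and Homer1-206 take bases from an exon that starts at 93366243 in Homer1-205 and 93366278 in Homer1-206, and Homer1-207 from an exon at 93386345 that Homer1-203 also uses. The long form Homer1-201 jumps to 93387524 and has 538 further coding bases.

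Homer1-204 (ENSMUST00000102752, RefSeq NM_011982.3) has the structure of Homer1a, with 5 exons and 558 coding bases, and its last exon of 4523 bases runs to 93360462. The long forms are Homer1-201, Homer1-202 and Homer1-203, with 9, 9 and 10 exons and 1062, 1110 and 1098 coding bases. Homer1-205, Homer1-206 and Homer1-207 each have 6 exons and 609, 699 and 579 coding bases, and end before the exons of the long forms or among them. Homer1-208 to Homer1-211 are short annotated transcripts of 772 to 815 bases that skip internal exons. The annotation (GENCODE M21) gives these 4 and Homer1-206 its lowest support level, and tags them as not supported by transcripts of the organism. Homer1-212 and Bdnf-211 are in the annotation but not among the rows, and were not analysed here.

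**Figure D1:**
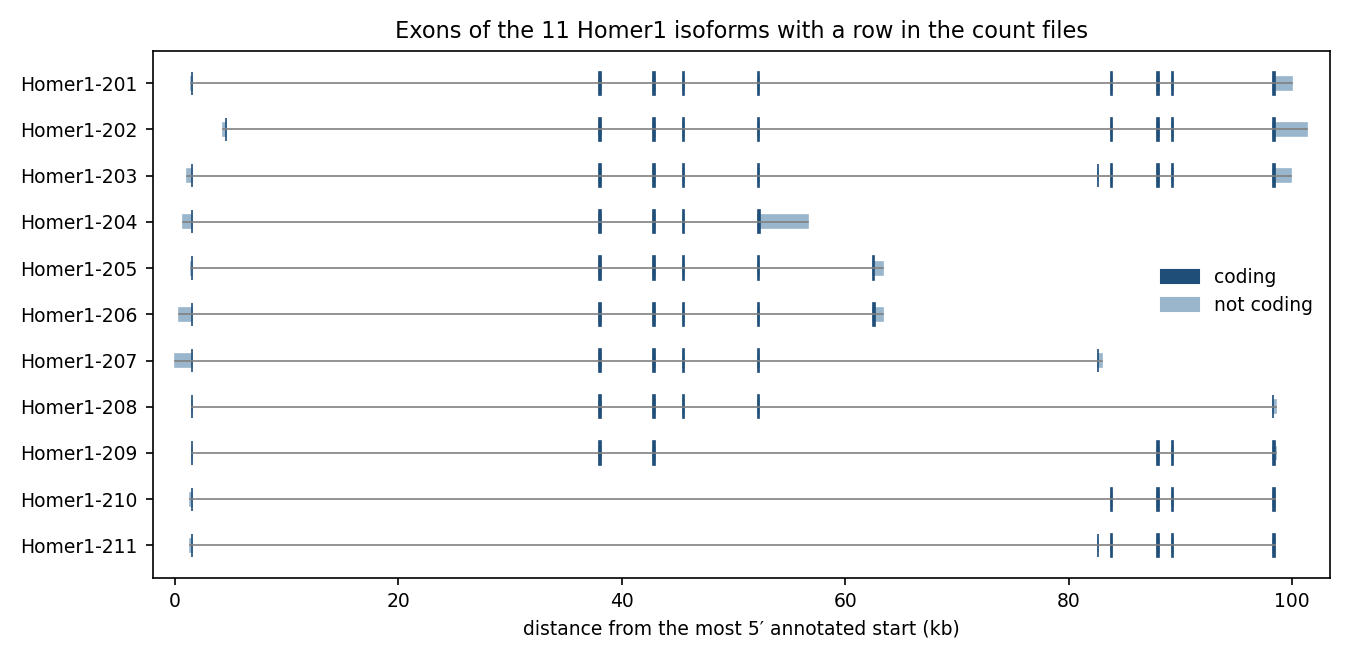
Exons of the 11 Homer1 isoforms by distance in kb from the most 5′ annotated start, coding parts dark and other parts light, with introns as thin lines. Homer1-204 ends in a long last exon that runs on from the fifth exon, while Homer1-201, Homer1-202 and Homer1-203 share the exons at the far right.

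Reads were counted in every isoform they overlapped, so a row is not the abundance of that isoform alone. In 10 pairs of Homer1 or Bdnf rows the exon bases of 1 isoform hold those of the other in full, and in all 60 comparisons of such a pair in a library the longer row had at least as many counts. The Bdnf rows share 3626 bases, the last exon at chromosome 2, 109723382 to 109727007, out of 3819 to 4266 bases each. No base belongs to all 11 Homer1 rows. Levels below are counts scaled to the library total (CPM), and CPM per kb of transcript where rows of different length are compared.

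Some facts of the libraries touch every result below. Totals were 41273977 and 42374860 counts in heterozygotes, 38240659 and 31277851 in wild types at P100, and 30651483 and 41143313 in wild types at P30, and the 6 layer 4 markers were present in all libraries at a summed 326 to 381 CPM. Otx2 had 0 and 73 counts in heterozygotes and 0 in all 4 wild-type libraries, so the labelled allele could not be checked on it. The heterozygous replicate 2 with those 73 counts stood apart by its choroid plexus RNA. All 16 markers of that tissue were highest there, at a summed 387 CPM against 57.3 to 76.0 CPM in the other 5 libraries. Between 5 and 8 of the 16 were at 0 in those others, and Enpp2 alone, at 55.6 to 74.5 CPM, made up most of each sum. Ttr had 8966 counts in the heterozygous replicate 2 against 0 or 1. Xist reached 284 and 335 CPM in heterozygotes, and 0.0959 to 0.228 CPM in wild types, while the Y-linked Ddx3y had 0.896 and 0.378 CPM in heterozygotes, and 51.5 to 55.6 CPM in wild types. The sex of the pooled mice, as these genes show it, and the genotype therefore cannot be told apart. The 6 markers of myelinating oligodendrocytes summed to 655 and 689 CPM in heterozygotes, 517 and 439 CPM in wild types at P100, and 943 and 909 CPM in wild types at P30, none at 0. Their part in the results was not tested. In bulk tissue, fewer cells of a type and less RNA per cell cannot be told apart.

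All 11 Homer1 rows were lower in heterozygotes at P30 than in wild types at P30, and 10 of 11 were lower in wild types at P100 than at P30 (edgeR quasi-likelihood test, Benjamini-Hochberg adjusted p under 0.05 over 62163 transcripts). Of all transcripts tested, 2.01% were called lower for genotype and 3.47% for age, and no Homer1 row was called higher in either comparison, beside 0.783% and 2.28%. The rows count many of the same reads, so they are not 11 separate observations. The differences were widest in Homer1-204 and, in both comparisons, at least 1.58-fold in Homer1-205, Homer1-206 and Homer1-207. The median log2 difference of the 11 rows was -0.47 for genotype and -0.38 for age, beside medians of all transcripts within 0.005 of 0. The 2 comparisons share the wild-type P30 libraries. For age, 4 rows were called without the wild-type P100 replicate 2 and 6 without the wild-type P30 replicate 2, Homer1-204 to Homer1-207 among them. For genotype, 9 were called without the heterozygous replicate 2, which held the choroid plexus RNA.

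Homer1-204, the Homer1a structure, had 192.4 and 194.1 CPM in heterozygotes, 204.1 and 161.3 CPM in wild types at P100, and 327.3 and 392.4 CPM in wild types at P30. Both wild-type P30 libraries lay above the 4 others, and the other 2 groups overlapped. For genotype the row fell 1.90-fold (edgeR log2 difference -0.93, SE 0.10, adjusted p = 1.06e-05). With age it fell 2.02-fold (log2 difference -1.01, SE 0.10, edgeR adjusted p = 3.24e-06). Between heterozygotes and wild types at P100 the log2 difference was 0.09 (SE 0.10, edgeR adjusted p = 0.719), which does not show that the 2 groups had the same level. Without the heterozygous library that held choroid plexus RNA, the log2 difference for genotype was -0.93 (edgeR adjusted p = 5.56e-05).

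The rows of the forms that end between the fifth exon and the exons of the long forms followed. They count reads of exons shared with Homer1-204 as well as their own. Homer1-206 had 113.4 and 115.6 CPM in heterozygotes, 122.6 and 113.4 CPM in wild types at P100, and 183.5 and 203.5 CPM in wild types at P30. Its log2 difference was -0.79 for genotype (SE 0.07, edgeR adjusted p = 2.36e-06) and -0.75 for age (SE 0.07). Homer1-205, which shares the last exon with it, had 77.4 and 74.5 CPM in heterozygotes, 79.1 and 72.8 CPM in wild types at P100, and 114.0 and 128.0 CPM in wild types at P30. Homer1-207 had 110.5 and 109.7 CPM in heterozygotes, 117.6 and 108.1 CPM in wild types at P100, and 164.9 and 183.0 CPM in wild types at P30. In these 3 rows the heterozygotes and the wild types at P100 overlapped, and both lay below the wild types at P30. Homer1-205 fell by 0.70 on the log2 scale for genotype and by 0.71 for age, and Homer1-207 by 0.69 for genotype and by 0.66 for age (SE 0.07 to 0.08).

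The rows of the long forms fell less by their point estimates. These rows also count reads of exons shared with the short forms, so their falls need not be those of the long forms alone. Reads mostly in exons of the long form are isolated further below. Homer1-201 had 154.8 and 150.3 CPM in heterozygotes, 172.3 and 163.4 CPM in wild types at P100, and 185.2 and 210.6 CPM in wild types at P30. Homer1-203 had 171.6 and 168.3 CPM in heterozygotes, 190.6 and 181.0 CPM in wild types at P100, and 213.7 and 241.4 CPM in wild types at P30. Homer1-202, the long form with a separate first exon, had 145.6 and 141.9 CPM in heterozygotes, 166.9 and 163.9 CPM in wild types at P100, and 168.5 and 191.9 CPM in wild types at P30. In all 3 long rows the heterozygotes were lowest, the wild types at P100 next and the wild types at P30 highest, with no overlap. For genotype, Homer1-201 fell by 0.41, Homer1-202 by 0.36 and Homer1-203 by 0.45 on the log2 scale (SE 0.07 each). For age, Homer1-201 fell by 0.28 and Homer1-203 by 0.33, while Homer1-202 had a log2 difference of -0.16 (SE 0.07) that missed the threshold (edgeR adjusted p = 0.215). The age calls of the long rows depend on single libraries: without the wild-type P30 replicate 2, Homer1-201 had a log2 difference of -0.16 (adjusted p = 0.248) and Homer1-203 of -0.22 (adjusted p = 0.0952), and without the wild-type P100 replicate 2 they had -0.23 (adjusted p = 0.233) and -0.29 (adjusted p = 0.118).

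Homer1-208 to Homer1-211, the transcripts with skipped exons, had 50.6 to 77.7 CPM in heterozygotes, 52.2 to 83.4 CPM in wild types at P100, and 69.2 to 110.3 CPM in wild types at P30. They fell by 0.41 to 0.48 on the log2 scale for genotype and by 0.29 to 0.40 for age. Their exons all lie in exons of the other rows, so their counts hold reads of those forms.

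The levels of the rows were also set against one another. Homer1-201 had 79.0% of the counts of Homer1-204 in heterozygotes and 92.9% in wild types at P100, against 55.1% in wild types at P30. In the wild-type P100 replicate 2, where Homer1-204 was lowest at 161.3 CPM, all 3 long rows exceeded it, Homer1-201 with 163.4, Homer1-202 with 163.9 and Homer1-203 with 181.0 CPM. Per kb of transcript, Homer1-204 averaged 33.8 ± 0.21 CPM per kb in heterozygotes, 32.0 ± 5.3 in wild types at P100, and 63.0 ± 8.1 in wild types at P30 (SD, n = 2 each). Homer1-201 averaged 55.2 ± 1.1 CPM per kb in heterozygotes, 60.7 ± 2.3 in wild types at P100, and 71.6 ± 6.5 in wild types at P30. A test of each row against the rest of its gene (edgeR diffSpliceDGE, 49586 transcripts) called no Homer1 row. Homer1-204 came nearest, with a log2 difference of -0.49 from the fit of the whole gene for age (unadjusted p = 7.20e-06, edgeR adjusted p = 0.0695) and of -0.33 for genotype (unadjusted p = 0.00111, edgeR adjusted p = 1.00). At an unadjusted p under 0.05, 6 of 11 Homer1 rows differed from the rest of the gene for age and 2 for genotype, beside 1.44% and 0.934% of all transcripts so tested. For age, Homer1-204 and Homer1-206 were lower, and Homer1-201, Homer1-202, Homer1-203 and Homer1-209 higher. For genotype, Homer1-204 was lower and Homer1-202 higher. The rows share reads and each is set against the same gene, so these are not separate differences. At an adjusted p under 0.05, 0.00202% of all were called lower in each of the 2 comparisons, and 0.00605% higher for age and 0.00202% for genotype. Without the wild-type P30 replicate 1, this test called Homer1-204 lower for age (adjusted p = 0.0274), while leaving out any of the other 5 libraries gave no call, with an adjusted p of 0.0971 without the wild-type P30 replicate 2, 0.234 and 1.00 without the wild-type P100 replicate 1 or 2, and 0.782 and 0.781 without the heterozygous replicate 1 or 2.

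**Figure D2:**
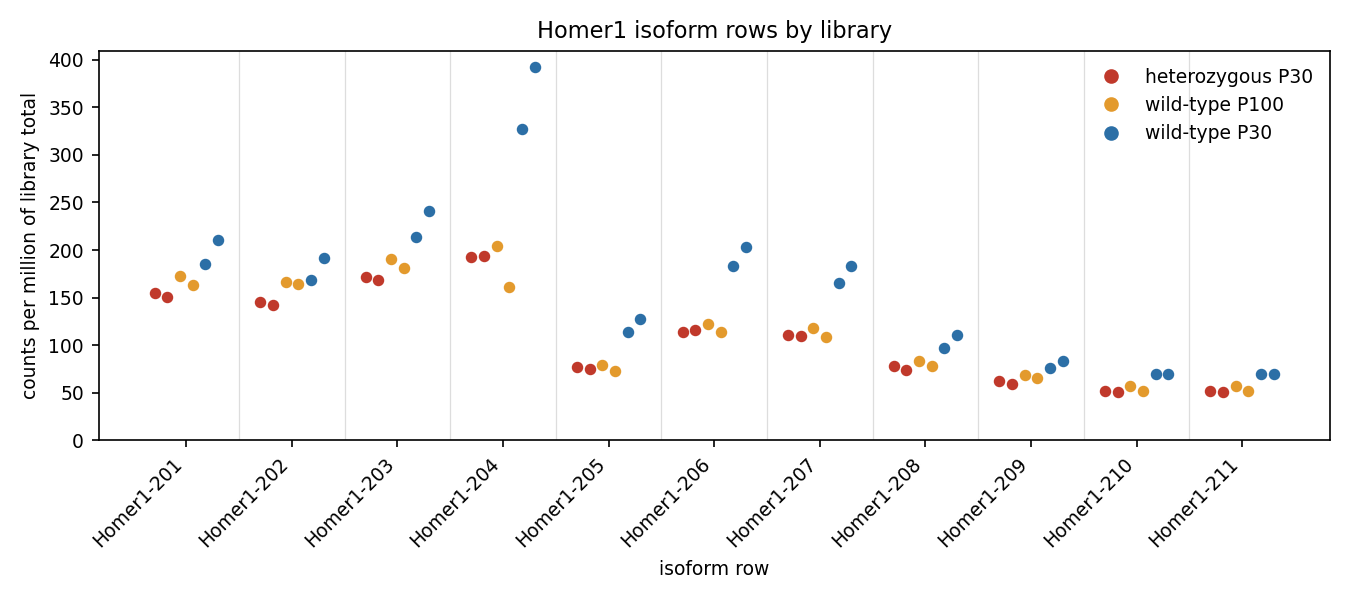
CPM (y axis) for the 11 Homer1 rows (x axis), 1 point per library, with the heterozygotes at P30, the wild types at P100 and the wild types at P30 in this order within each row. The widest gap is in Homer1-204, where the wild types at P30 stand at 327.3 and 392.4 CPM and the 4 other libraries at 161.3 to 204.1 CPM.

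Because the rows overlap, reads of a single stretch were isolated by subtracting 1 row from another. These subtractions were chosen after the rows had been seen. Homer1-204 minus Homer1-207 leaves, at the least, the reads in the 4383 bases by which Homer1-204 runs past exon 5 (chromosome 13, 93356080 to 93360462), since the rest of Homer1-204 lies within Homer1-207. It is a lower bound, as Homer1-207 has 1138 bases of its own. These short-end reads came to at least 81.9 and 84.4 CPM in heterozygotes, 86.5 and 53.2 CPM in wild types at P100, and 162.4 and 209.4 CPM in wild types at P30. This lower bound was 2.28-fold lower for genotype (log2 difference -1.19, SE 0.15, edgeR adjusted p = 8.27e-05) and 2.73-fold for age (log2 difference -1.45, SE 0.15, edgeR adjusted p = 6.45e-06). A lower bound can move further than the reads it bounds, so these folds need not be those of the short-end reads. The fit also took this difference as a count. Reads only in Homer1-207 add noise of their own, so its SE and p may be too small. The wild-type P100 replicate 2 was the lowest of the 6 libraries. Between heterozygotes and wild types at P100 the log2 difference was 0.25 (SE 0.15, edgeR adjusted p = 0.411). Without the wild-type P100 replicate 1 it was 0.66 (adjusted p = 0.0100), and without replicate 2 it was -0.055 (adjusted p = 0.897).

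Homer1-206 minus Homer1-207 leaves a lower bound on the reads in the 857 bases of the last exon of Homer1-206, the second short end. It was 2.96 and 5.95 CPM in heterozygotes, 5.02 and 5.28 CPM in wild types at P100, and 18.6 and 20.4 CPM in wild types at P30. The 4 libraries of heterozygotes and older wild types all lay under 6 CPM, far from the younger wild types. The difference was 4.47-fold for genotype (log2 difference -2.16, SE 0.18, edgeR adjusted p = 6.60e-07) and 3.90-fold for age (log2 difference -1.96, SE 0.19, edgeR adjusted p = 3.04e-06). Here too the folds are those of a bound and need not be those of the transcript. SE and p may again be too small, since the fit took a difference of 2 sets of reads as a count. Between heterozygotes and wild types at P100 the log2 difference was -0.20 (SE 0.21, edgeR adjusted p = 0.704), with -0.79 (adjusted p = 0.0257) without the heterozygous replicate 2 and 0.22 without replicate 1.

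Homer1-201 minus Homer1-208 is exact, since Homer1-208 lies wholly within Homer1-201. It leaves reads in 1952 bases, most of them in the exons of the long form and in its last exon, and some in exon 1. These reads came to 77.1 and 76.1 CPM in heterozygotes, 88.9 and 85.1 CPM in wild types at P100, and 87.8 and 100.3 CPM in wild types at P30. The wild types of both ages overlapped, and the log2 difference for age was -0.15 (SE 0.08, edgeR adjusted p = 0.281). For genotype it was -0.33 (SE 0.08, edgeR adjusted p = 0.0258), a call lost when a heterozygous replicate or the wild-type P30 replicate 2 was left out (adjusted p = 0.158 to 0.245). The ratio of the lower bound on short-end reads to the long reads, itself a lower bound, was 1.06 and 1.11 in heterozygotes, 0.974 and 0.625 in wild types at P100, and 1.85 and 2.09 in wild types at P30. Both other groups lay below the younger wild types, with mean ratios of 1.09 ± 0.033 in heterozygotes, 0.799 ± 0.25 in wild types at P100, and 1.97 ± 0.17 in wild types at P30 (SD, n = 2 each). An exact two-sided permutation test of 2 libraries against 2 gave p = 0.333 for either comparison, the smallest it allows.

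**Figure D3:**
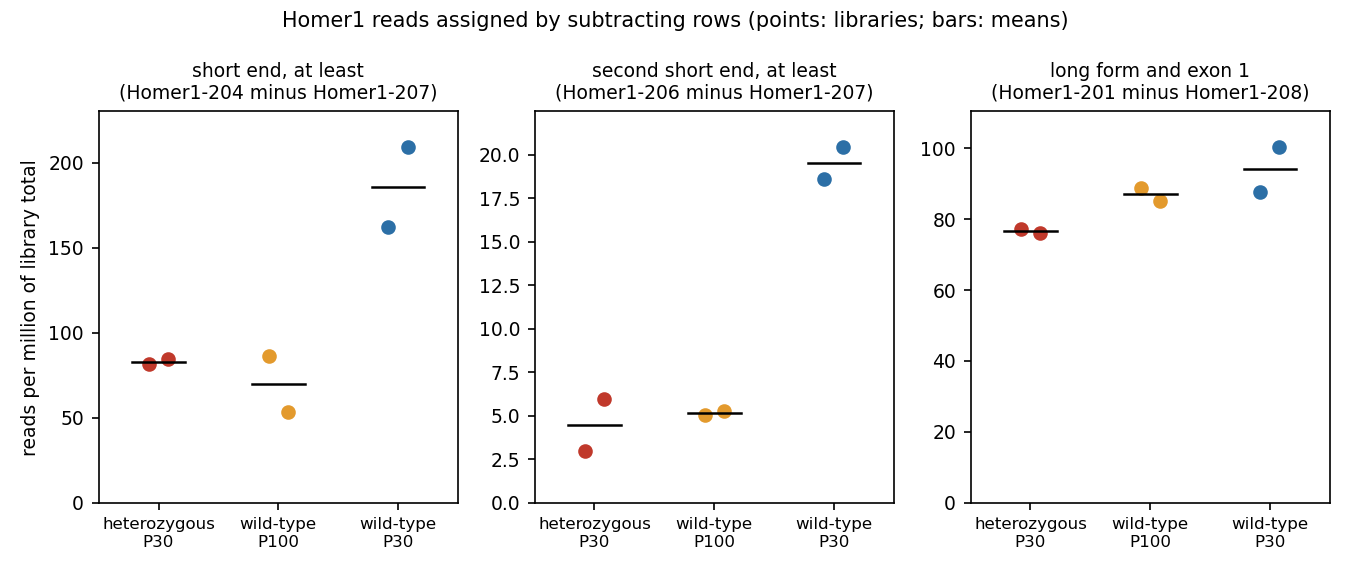
CPM (y axis) left by subtracting rows, for heterozygotes at P30, wild types at P100 and wild types at P30, with 1 point per library and a bar at the mean. In the 2 short-end panels, both lower bounds, the wild types at P30 stand apart at 162.4 and 209.4, and at 18.6 and 20.4, while the long reads lie between 76.1 and 100.3 in all libraries.

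The Bdnf rows were nearly the same row counted 10 times. Within a library they differed by 26 to 37 counts, and the lowest had 93.3% to 96.7% of the highest. Bdnf-202 and Bdnf-204 had the same count in every library. The reads of the shared last exon thus set the level, and the rows speak of Bdnf as a gene rather than of its promoters. Bdnf-201 (ENSMUST00000053317, NM_007540.4), which starts with exon I, had 576 and 715 counts in heterozygotes, 614 and 555 in wild types at P100, and 544 and 1114 in wild types at P30. In CPM this was 14.0 and 16.9 in heterozygotes, 16.1 and 17.7 in wild types at P100, and 17.7 and 27.1 in wild types at P30. The wild-type P30 replicate 2 was far above the other 5 libraries, and replicate 1 stood above the next by less than these digits show. Per kb, Bdnf-201 averaged 3.61 ± 0.48 CPM per kb in heterozygotes, 3.96 ± 0.28 in wild types at P100, and 5.25 ± 1.5 in wild types at P30 (SD, n = 2 each), below Homer1-204 in every group.

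All 10 Bdnf rows were called lower in heterozygotes than in wild types at P30, beside 2.01% of all transcripts. Their log2 differences were -0.57 to -0.59 (SE 0.14 to 0.15, edgeR adjusted p = 0.0281 to 0.0425). For age 4 of 10 were called lower, beside 3.47% of all transcripts: Bdnf-202, Bdnf-203, Bdnf-204 and Bdnf-205. Over all 10 rows the log2 differences for age were -0.46 to -0.52 (SE 0.14 to 0.15, edgeR adjusted p = 0.0365 to 0.0761), so rows on both sides of the threshold had about the same value. No Bdnf row was called between heterozygotes and wild types at P100 (log2 differences -0.07 to -0.12, edgeR adjusted p = 0.758 to 0.871, none with an unadjusted p under 0.05). These calls rest on the wild-type P30 replicate 2. Without it no Bdnf row was called in either comparison, and Bdnf-205, the row with the smallest p, had a log2 difference of -0.25 for genotype (adjusted p = 0.387) and of -0.17 for age (adjusted p = 0.479). Without the heterozygous replicate 1 none was called for genotype, and without replicate 2, which held the choroid plexus RNA, all 10 were. Without the wild-type P100 replicate 1 or 2, 3 or 1 were called for genotype and none for age. DESeq2 called no Bdnf row in either comparison. With 1 transcript per gene (15841 genes), Bdnf-201 had a log2 difference of -0.59 for genotype (edgeR adjusted p = 0.0665) and of -0.46 for age (edgeR adjusted p = 0.104).

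**Figure D4:**
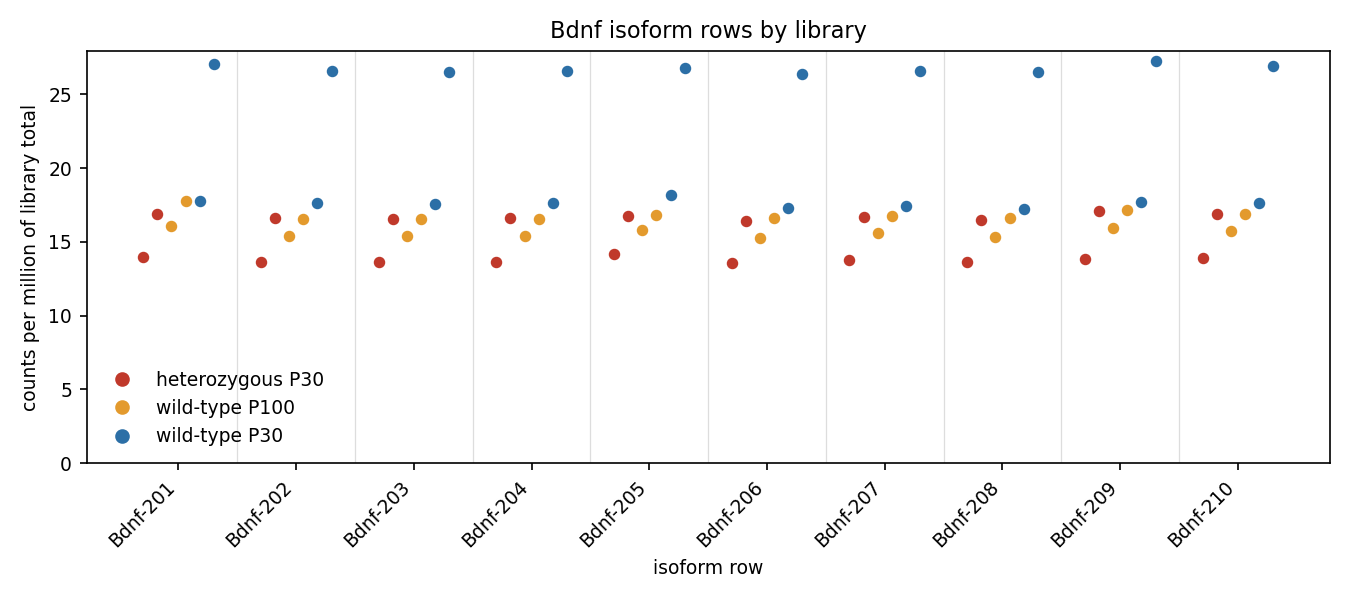
CPM (y axis) for the 10 Bdnf rows (x axis), 1 point per library, ordered as heterozygotes at P30, wild types at P100 and wild types at P30 within each row. The same pattern recurs in every row, with 1 wild-type P30 library at 26.4 to 27.3 CPM and the other 5 libraries at 13.6 to 18.2 CPM.

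What a row holds above the lowest Bdnf row of its library is small. That lowest row differs between libraries and has a 5′ exon of its own. An excess is thus a lower bound on the reads of a 5′ exon. Counts in this paragraph are not scaled to library totals. Bdnf-201, with exon I, exceeded the lowest row of its library by 16 and 18 counts in heterozygotes, 29 and 37 in wild types at P100, and 15 and 29 in wild types at P30. In CPM this excess was 0.388 and 0.425 in heterozygotes, and 0.489 and 0.705 in wild types at P30. Both wild-type P100 libraries lay above these, at 0.758 and 1.18 CPM. Of the bases of Bdnf-201, 497 also lie in an exon of Gm45346, a gene on the other strand. The use of strand in counting was not given in the sources used here. Reads of Gm45346 and of Bdnf thus cannot be told apart there. Bdnf-209, with exon IV (chromosome 2, 109692436 to 109692774), exceeded the lowest row by 12 and 28 counts in heterozygotes. Its excess was 25 and 18 counts in wild types at P100, and 13 and 37 in wild types at P30. The difference Bdnf-210 minus Bdnf-208, which is exact and covers 295 bases of exon II, was 12 and 17 counts in heterozygotes, 16 and 8 in wild types at P100, and 12 and 17 in wild types at P30. All 295 bases also lie in an exon of Gm45346, so the same limit holds there. Bdnf-205 exceeded the lowest row by 26 and 12 counts in heterozygotes and by 20 and 8 in wild types at P100. In wild types at P30 its excess was 28 and 16 counts. The groups overlapped in the counts of Bdnf-205, of Bdnf-209 and of exon II, and no test was run on any of these small remainders. No Bdnf row differed from the rest of the gene in the test of isoforms, with unadjusted p over 0.05 for all 10 in both comparisons. Nearly all reads of these rows are shared, so this test could hardly register a change in a 5′ exon. Nothing on the promoters follows from it.

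**Figure D5:**
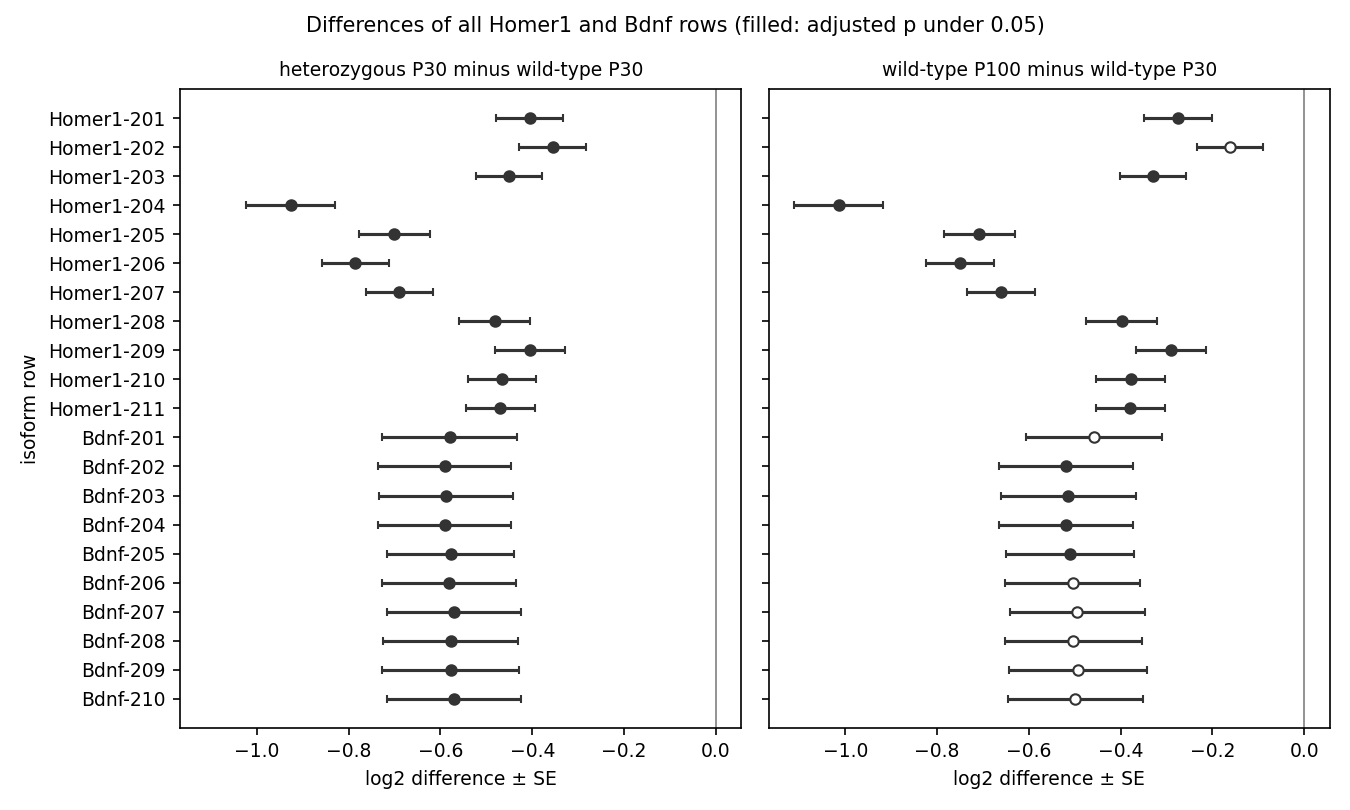
Log2 differences (x axis) with their standard errors for all 21 rows, of heterozygotes minus wild types at P30 on the left and of wild types at P100 minus P30 on the right, filled where the adjusted p was under 0.05. Homer1-204 lies furthest left in both panels, at -0.93 and -1.01, and the Bdnf rows form a column at -0.57 to -0.59 on the left and -0.46 to -0.52 on the right.

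Between heterozygotes and wild types at P100 no Homer1 row was called, beside 2.17% of transcripts called lower and 1.85% higher, and 1 of 11 had an unadjusted p under 0.05, beside 17.2% of all transcripts. The log2 differences ran from -0.19 in Homer1-202 (SE 0.07, edgeR adjusted p = 0.159) to 0.09 in Homer1-204. In 7 of the 11 rows, the 3 long ones and Homer1-208 to Homer1-211, both heterozygous libraries lay below both wild-type P100 libraries, where 24.5% of all transcripts did so. For genotype and for age, all 21 rows lay without overlap below the wild types at P30, beside 19.5% and 20.3% of all transcripts.

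The authors' deposited tables of comparisons, computed per transcript, gave Homer1-204 a log2 fold change of -0.93 for genotype (adjusted p = 1.63e-04) and of -1.01 for age (adjusted p = 0.00269). By the authors' deposited tables, 10 of 11 Homer1 rows had an adjusted p under 0.05 for genotype and 6 of 11 for age, beside 0.983% and 1.30% of all their rows. For Bdnf the authors' deposited tables had none of 10 under 0.05 in either comparison, with adjusted p of 0.556 to 0.669 for genotype and 0.863 to 0.968 for age.

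The promoters are shown because short Homer1 forms and Bdnf promoter IV are known to respond to activity. Their part in the levels above was not tested. Sequences are the 250 bases before an annotated start, from RefSeq (GRCm38.p6), in which 2 starts matched Homer1 and 7 matched Bdnf. Capitals mark TGACGT, the core of the site bound by CREB-family factors, or its reverse complement ACGTCA. The Homer1 window is chr13:93303507-93303756, before the start of Homer1-207, and the Bdnf window is chr2:109692186-109692435, before exon IV, both on the plus strand.
Homer1: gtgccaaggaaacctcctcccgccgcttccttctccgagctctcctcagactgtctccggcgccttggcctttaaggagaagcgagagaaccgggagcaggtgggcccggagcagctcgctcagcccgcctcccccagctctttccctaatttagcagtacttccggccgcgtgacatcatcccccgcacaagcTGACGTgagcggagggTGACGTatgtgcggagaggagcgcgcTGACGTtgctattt
Bdnf exon IV: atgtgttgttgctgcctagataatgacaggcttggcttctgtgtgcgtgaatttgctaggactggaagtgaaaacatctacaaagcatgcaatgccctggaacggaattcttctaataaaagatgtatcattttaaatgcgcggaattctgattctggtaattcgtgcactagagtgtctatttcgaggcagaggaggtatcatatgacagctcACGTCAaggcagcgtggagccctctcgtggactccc
The Homer1 window held TGACGT 3 times, starting 56, 40 and 14 bases before the start, and the Bdnf window held ACGTCA 1 time, 36 bases before it. It was in none of the other 7 windows, which include the second Homer1 start, that of Homer1-202, and 6 of Bdnf. Of 32851 promoter windows of the same length, 6.47% held the motif on either strand and 0.152% held it 3 or more times. The longer palindrome TGACGTCA, which contains it, was in 1.55% of windows, CACGTG in 6.02% and TGANTCA in 6.75%. Of these, TGACGTCA and CACGTG were in none of the 9 windows, and TGANTCA was in 1, before Bdnf exon III. A match is a description of letters and not a site.

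Among 18 genes of the Homer scaffold and its receptors, 1 was called lower and 0 higher in heterozygotes at P30, beside 2.32% and 0.903% of 15841 genes. For age 3 were called lower and 1 higher, beside 4.54% and 3% of genes. Shank1, a postsynaptic scaffold that Homer binds, was among those lower with age and had 47.8 and 43.0 CPM in wild types at P100, and 60.8 and 63.7 CPM in wild types at P30. Itpr1, the inositol trisphosphate receptor, moved the other way with age, with 486 and 517 CPM in wild types at P100, and 389 and 377 CPM in wild types at P30. The median of the list was -0.09 for genotype and -0.03 for age, beside medians of all genes within 0.003 of 0. Homer2 and the receptor gene Grm5 were not called in either comparison.

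Of 20 genes for BDNF processing, secretion and its receptors, 15 passed the filter on low counts. In heterozygotes 1 of these was lower and 0 higher, beside 2.32% and 0.903% of all genes, and at P100 4 were lower and 0 higher, beside 4.54% and 3% of all genes. The medians were -0.09 for genotype and -0.03 for age. Pcsk1, a prohormone convertase, had 34.7 and 36.3 CPM in heterozygotes, 34.4 and 39.3 CPM in wild types at P100, and 43.0 and 48.8 CPM in wild types at P30 (log2 difference -0.41 for genotype and -0.36 for age, SE 0.09). Cpe, a carboxypeptidase of secretory granules, and Cadps2, a priming factor of dense-core vesicles, fell with age by 0.41 and 0.33 on the log2 scale. The receptor gene Ntrk2 had 357 and 374 CPM in heterozygotes, 405 and 401 CPM in wild types at P100, and 338 and 363 CPM in wild types at P30, and was not called in these comparisons.

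Of 16 transcription factors known to act on promoters of either gene, 15 were tested, and 3 were lower and 0 higher in each comparison, with medians of -0.09 for both. Of all genes, 2.32% were lower and 0.903% higher for genotype, and 4.54% and 3% for age. Npas4, an activity-induced factor that binds Bdnf promoters, had 6.40 and 8.21 CPM in heterozygotes, 4.21 and 11.3 CPM in wild types at P100, and 21.4 and 16.0 CPM in wild types at P30. It fell 2.61-fold for genotype (log2 difference -1.38, SE 0.28, edgeR adjusted p = 0.0158) and 2.51-fold for age (log2 difference -1.32, SE 0.29, edgeR adjusted p = 0.0137). Bhlhe40, a repressor of the basic helix-loop-helix family, was called lower in both comparisons. It had 49.1 and 53.4 CPM in heterozygotes, 65.0 and 45.8 CPM in wild types at P100, and 66.1 and 92.5 CPM in wild types at P30. Crem, a CREB relative, was called for genotype and not for age, with 6.49 and 6.80 CPM in heterozygotes, against 9.17 and 12.03 CPM in wild types at P30. Srf, the serum response factor, was called for age and not for genotype, a difference between comparisons that was not tested, with 11.2 and 10.3 CPM at P100, against 13.2 and 15.5 CPM at P30. Creb1 was not called.

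The genes whose levels were most like Homer1-204 over the 6 libraries, among 8244 genes ranked by Pearson's r of log2 CPM, were Klf10 (r = 0.994), Ammecr1l (r = 0.992), Usp19 (r = 0.992), Stk40 (r = 0.990) and Dio2 (r = 0.988). They share the libraries and 189 genes had r over 0.9, so the order is a description. Klf10, a zinc-finger transcription factor, had 21.6 and 24.1 CPM in heterozygotes, 24.3 and 16.7 CPM in wild types at P100, and 42.6 and 52.8 CPM in wild types at P30. For Bdnf-201 the nearest were Pcdhgc4 (r = 0.985), Csnk1g2 (r = 0.980), Zmiz2 (r = 0.973), Adora1 (r = 0.972) and Cep170b (r = 0.972), with 74 genes over 0.9. For Bdnf-209, the Bdnf row with the widest range, they were Pcdhgc4 (r = 0.989), Mn1, Zmiz2, Irs2 and Cep170b (r = 0.970). All of these were highest in the wild-type P30 replicate 2, the library in which Bdnf was highest. The size of the change differed here too. Pcdhgc4 ran from 93.6 to 116.7 CPM, Cep170b from 78.4 to 91.9 CPM and Irs2 from 13.4 to 31.5 CPM.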

How the data were processed

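Total RNA of pooled layer IV tissue was sequenced, per the labels. The authors deposited raw counts, 1 whole number per Ensembl transcript and library, as the file headers and values show. Bowtie, HTSeq, DESeq 1.8.3 and mm10 are named in the submitters' processing notes. For settings, annotation release and strandedness, nothing was given in the sources used here. Comparison tables by the authors hold, per the file headers, signal values (group means of counts over size factors), their fold ratio, the log2 of it, and p-values; they were used only where named.

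Low transcripts were removed with filterByExpr (at least 10 counts, 15 in total). After TMM scaling, edgeR 4.0.16 under R 4.3.3 gave quasi-likelihood tests with 1 factor of 3 groups over 6 libraries and 3 residual degrees of freedom. P-values were adjusted by Benjamini-Hochberg over 62163 transcripts with a threshold of 0.05, and SE is the log2 difference over the square root of F. Levels are CPM of the library total without TMM factors (0.975 to 1.01). Rows were tested against the rest of their gene with diffSpliceDGE. Differences of rows were appended to the table as if they were counts and tested in the same fit. Rows without a gene name held 13.8% to 14.1% of counts and stayed among the transcripts tested. Exon structures are those of GENCODE M21.

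Nothing states that replicates came from separate dissections beyond the pooling of 4 mice each, so p-values reflect library-to-library spread, which may be technical. Replicates differed beyond counting noise (chi-square over degrees of freedom 4.18 to 5.41). Replicate numbers were not taken to pair libraries. Rows, lists (all members of which were counted) and comparisons were chosen with earlier results of these data known. All rows are named, as are up to 3 called members of each list per comparison and the 5 genes most like each of the rows with the highest mean and the widest range; other list members were named after their values were seen. Values of some list members are not reported here. Per simulated data (200 changed transcripts of 61493 for age), 42.9%, 84.4% and 98.1% of changes of 1.5-fold, 2-fold and 4-fold were recovered. For genotype (61578 transcripts) the shares were 51.6%, 83.3% and 97.1%. Simulated transcripts were drawn separately and shared no reads, unlike the Homer1 and Bdnf rows. Changed ones were not taken from the lowest counts, and calls were few (146 for age, 161 for genotype). The shares need not hold for the rows of this report. Alternatives were RLE, upper-quartile and no scaling factors, dropping the filter or asking for CPM 1 in 2 libraries, limma-voom (limma 3.58.1), DESeq2 1.42.0, only the libraries compared, a replicate block, 1 transcript per gene, and leaving out each library.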

Additional observations from a re-analysis of the deposited data

How the results depend on the processing

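Homer1-204 was called lower for genotype and for age under all 16 alternatives, with log2 differences of -1.07 to -0.77 and -1.20 to -0.85, and Homer1-205, Homer1-206 and Homer1-207 under all 15 run on them. The lower bounds on short-end and second short-end reads, an alternative added after the data were seen, were called for genotype and for age under all alternatives run on them. Of 959 values of single rows and read classes under alternatives, 812 kept direction and side of the threshold. Between heterozygotes and wild types at P100, none of these was called in the main fit. Without a filter on low counts, the lower bound on short-end reads was called higher in heterozygotes (log2 difference 0.26, edgeR adjusted p = 0.0127). When a library was left out, 4 values reversed. Bdnf-201 then ranged from -0.26 to 0.0071 (the highest without the heterozygous replicate 1), Homer1-204 from -0.077 (without the wild-type P100 replicate 2) to 0.27, the short end from -0.055 (without the wild-type P100 replicate 2) to 0.66, and the second short end from -0.79 to 0.22 (the highest without the heterozygous replicate 1).

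For age, the count of Homer1 rows called lower was 4 to 11 when a library was left out (4 without the wild-type P100 replicate 2, 6 without the wild-type P30 replicate 2), and that for genotype 9 to 11. The count of Bdnf rows called lower for age was 0 to 10 when a library was left out, and for genotype 0 to 10. For age it was 10 without a filter, 1 with the CPM filter, 7 with only the 4 libraries compared, 0 with DESeq2 and 1 with limma-voom, and for genotype 4 with the CPM filter, 1 with only the 4 libraries compared and 0 with DESeq2. With a replicate block 10 Bdnf rows were called for age, while the same-numbered libraries correlated at 0.170, 0.00208 and -0.00287 in their deviations from the group means, so the numbers were not taken as pairs. The count of Homer1 rows lower than the rest of the gene for age was 0 to 1 when a library was left out.

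Of all transcripts, those called without a filter were 2258 higher for age (1420 with the filter), 1147 higher and 2126 lower for genotype (487 and 1250), and 2092 higher and 2154 lower between heterozygotes and wild types at P100 (1147 and 1346). DESeq2 called 771 higher and 1358 lower for age, 255 higher for genotype, and 693 higher and 863 lower in the third comparison. Leaving out a library gave 369 to 1190 higher and 684 to 1898 lower for age, 181 to 431 higher and 414 to 1400 lower for genotype, and 368 to 1576 higher and 493 to 1870 lower in the third. The causes were not tested. With 2 libraries per group, and 518 to 1122 counts per Bdnf row, depth limits what can be said of the 5′ exons of Bdnf.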
